A study of Mus musculus with 4 samples.

Results

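Keratinocyte-like cells of mouse inner ear organoids were selected on the expression of 7 epidermal genes. Transcripts were counted as UMIs (unique molecular identifiers). A barcode was kept when 500 genes or more had a UMI and no more than 10% of its UMIs came from the mitochondrial genome, and it was a member when at least 4 of Krt5, Krt14, Krt15, Krtdap, Trp63, Sfn and Dsp had at least 1 UMI. The rule took 817 of 35853 kept cells, or 2.28%. Because these 7 genes chose the cells, their values are given as a description and bear on nothing else. The organoids were 3D cultures of derived strain 129X1x129S1. The wild-type (WT) groups came from R1/E, a mouse embryonic stem cell line. The knockout (KO) groups came from R1/E-Tmprss3KO-GFPKI, an R1/E line labelled as a knockout of Tmprss3, a transmembrane serine protease needed for hearing, with a GFP knock-in that the WT line lacks. Each genotype was profiled on day 25 and on day 35 by droplet-based RNA sequencing, with 1 library per group. The labels name a single KO line and do not say whether it is 1 clone.

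The epidermis is a stratified epithelium that is renewed from a basal layer. Basal keratinocytes carry the keratin pair Krt5 and Krt14 and the transcription factor Trp63, and are anchored to the basement membrane by hemidesmosomes. Cells that leave this layer switch to the keratin pair Krt1 and Krt10 in the spinous layer and finally build the cornified envelope, while hair follicles form from the same surface ectoderm and express keratins of their own in the inner root sheath.

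The libraries held 35749960 to 85808118 UMIs, and the median member had 8815 UMIs in WT and 9711.5 in KO on day 25, and 3850 and 5756 on day 35. Summed over members this gave 4979460 UMIs in WT and 2224101 in KO on day 25, and 265127 and 731346 on day 35, so the WT library on day 35 gave the least precise values. Levels are a gene's UMIs scaled to the total UMIs of the members of its library (CPM). All intervals are exact 95% intervals and cover counting error only, and no difference was tested, since no group had a replicate. Between 76 and 142 barcodes occurred in both libraries of a pair, but no barcode was a member in more than 1 library. Genes known from other cell types had UMIs in the members. The 8 muscle genes summed to 860, 361, 592 and 209 CPM (WT and KO on day 25, then WT and KO on day 35, the order used throughout), 9 fibroblast genes to 462, 1179, 796 and 381 CPM, and 12 otic epithelial genes to 232, 23.4, 479 and 223 CPM. Of the members, 28.5%, 21.4%, 15.8% and 10.9% also had 4 or more genes of the muscle, fibroblast, otic, neuron or glia list. Doublets were not called, and the part of mixed droplets in the results was not tested beyond leaving such cells out. Tmprss3 itself had 1, 0, 0 and 1 UMI in the members and stood at 0.250, 0.0851, 0.261 and 0.106 CPM in all other cells, which is too little to check the KO label. The kit counts the 3′ ends of transcripts, and which part of Tmprss3 was altered is not given in the sources used here.

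Genes that the rule did not use were checked against the label, and those leading the cells are known from stratified epithelia. Among the 20 genes with the highest fold over all other kept cells were all selecting genes except Trp63. The others of the 20 were led by Lgals7 and Krt17. Lgals7, a galectin of stratified epithelia, stood at 4004, 3525, 1528 and 7233 CPM, which was between 58.6-fold and 209-fold the level in other cells after adding 10 CPM to both. Krt17, a keratin of activated and appendage keratinocytes, stood at 1689, 1628, 1909 and 1344 CPM (55.9-fold to 78.1-fold), a far narrower range. Also among them were Fgfbp1, a carrier of fibroblast growth factors (779, 730, 939 and 1114 CPM), Dmkn, a secreted epidermal protein (709, 777, 864 and 1095 CPM), Perp, a desmosomal membrane protein (861, 850, 611 and 1101 CPM), and Serpinb5, S100a14, Fxyd3 and Ly6d. A UMI of Lgals7 was found in 82.7%, 84.7%, 52.6% and 76.2% of members. In cells with 4 or more muscle genes it was found in 26.4%, 8.65%, 1.29% and 5.06%, at median depths of 9300, 8694, 4056.5 and 6073 UMIs. Krt17 was found in 84.7%, 85.2%, 86% and 77.2% of members against 11.1%, 4.02%, 1.29% and 2.68% of muscle cells.

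The selecting genes themselves differed between libraries. Krt14 stood at 3167, 1665, 2712 and 2312 CPM, Krt5 at 1329, 1041, 754 and 1080, and Krt15, a further basal keratin, at 833, 674, 660 and 1276. Krtdap, a secreted protein of differentiating keratinocytes, stood at 1384, 1275, 619 and 4380 CPM, so the KO library on day 35 was the highest by far. Trp63 was the lowest of the 7, at 89.6, 111, 196 and 146 CPM. Krt5 and Krt14 were both present in 80.3%, 75.0%, 78.9% and 78.2% of members. Cells just inside and just outside the threshold are compared by their levels of a stratified epithelial and a muscle gene. In WT on day 25, Lgals7 stood at 532 CPM in cells with 3 of the 7 genes, 1221 with 4 and 5196 with 5 or more, whereas the muscle actin gene Acta1 stood at 1601, 187 and 254 CPM. In KO on day 35, Lgals7 was at 1314, 8043 and 6918 CPM and Acta1 at 76.9, 83.0 and 81.7.

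Keratinocyte-like cells made up a smaller share of the KO than of the WT library on day 25, and a larger share on day 35. They were 463 of 9768 kept cells in WT (4.74%, 4.33 to 5.18) and 196 of 11190 in KO (1.75%, 1.52 to 2.01) on day 25, and 57 of 8166 in WT (0.698%, 0.529 to 0.903) and 101 of 6729 in KO (1.5%, 1.22 to 1.82) on day 35. The genotype intervals were apart on both days. The ratio of KO over WT was 0.370 (0.311 to 0.438) on day 25 and 2.15 (1.54 to 3.03) on day 35. Since deeper cells show more genes, each cell was also thinned to 2000 UMIs before the rule was applied, which left out 707 shallower cells from WT on day 35 and none elsewhere. The shares were then 2.41%, 0.733%, 0.590% and 1.04%, with ratios of 0.305 (0.234 to 0.393) on day 25 and 1.76 (1.19 to 2.63) on day 35. Over time, the WT share on day 35 was 0.147 of that on day 25 (0.110 to 0.194) and 0.245 after thinning. In KO the ratio was 0.857 (0.667 to 1.09), and after thinning it turned to 1.42 (1.02 to 1.98), so no direction is given.

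**Figure D1:**
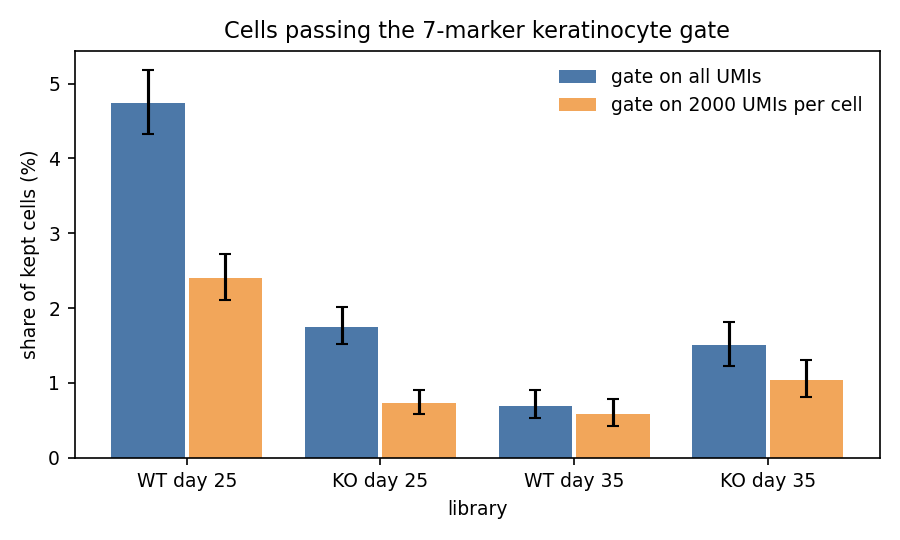
Share of kept cells that passed the rule on the 7 epidermal genes (vertical axis, percent) in each of the 4 libraries, on all UMIs (blue) and on 2000 UMIs per cell (orange), with exact 95% binomial intervals as error bars. WT on day 25 is the highest at 4.74% and 2.41%, and WT on day 35 the lowest at 0.698% and 0.590%.

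Level ratios were formed for every gene with at least 50 UMIs over the members of the 2 libraries compared, without the selecting genes, and a gene counts as higher or lower when its log2 ratio was at least 1 in size. At day 25, 126 of 8924 genes were higher in KO (1.41%) and 325 lower (3.64%), and the median log2 ratio of all genes was -0.05. At day 35, 133 of 2563 genes were higher (5.19%) and 125 lower (4.88%), with a median of 0.07. Of 2557 genes in both comparisons, 7 were higher and 14 lower on both days, 7 were lower on day 25 but higher on day 35, and 2 the reverse. Krt1 and Krt10 were among the 7 that turned from lower to higher. The 2 days share no library. Because the minimum is on the sum of 2 libraries, a gene can reach it through the library where it is high.

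Adhesion genes of keratinocytes are read against all genes, of which 1.41% were higher and 3.64% lower in KO on day 25. On day 35 these shares were 5.19% and 4.88%. None of the 10 measured desmosome genes on day 25, and none of 6 on day 35, was past 2-fold. Their median log2 ratios were -0.03 and 0.30. In lists this short a count of 0 is near the share of all genes. Jup, which encodes the linker plakoglobin, stood at 208, 203, 215 and 268 CPM. The plakophilin gene Pkp1 stood at 86.8, 87.2, 71.7 and 131 CPM, and the desmosomal cadherin gene Dsc3 at 62.1, 60.2, 52.8 and 64.3. Of 14 basal layer and hemidesmosome genes none was past 2-fold on day 25 (median -0.23), and on day 35, of the 10 measured, 1 was higher and 2 lower (median -0.01). The higher one was Postn, an extracellular matrix gene that fibroblasts also express (37.7 CPM in WT, 116 in KO). Among the lower was Itga6, which encodes a hemidesmosomal integrin subunit (200 and 83.4 CPM, log2 -1.26, -1.82 to -0.70). Col17a1, the hemidesmosomal collagen, stood at 92.4, 74.6, 124 and 88.9 CPM, with overlapping intervals on day 35.

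The spinous layer genes set the KO library on day 35 apart. Krt10 stood at 834, 238, 33.9 and 3025 CPM (4155, 529, 9 and 2212 UMIs). It was highest in KO on day 35, lowest in WT on day 35, and no intervals of the 4 libraries overlapped. In KO over WT its log2 ratio was -1.81 (-1.94 to -1.68) on day 25 and 6.48 (5.55 to 7.61) on day 35. The WT level on day 35 was close to that in all other cells of the library, 30.2 CPM. Krt1, the partner keratin, stood at 385, 81.8, 0 and 1432 CPM (1916, 182, 0 and 1047 UMIs). Its log2 ratio was -2.23 (-2.46 to -2.01) on day 25. At day 35 it was 127-fold higher in KO, with the 0 UMIs of WT set to 3 counts over the group. The lower interval bound of that log2 ratio was 6.68. Both genes followed 1 order, with KO on day 35 first, WT on day 25 second and WT on day 35 last.

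Both keratins were found in several cells, but unevenly. At least 1 UMI of Krt10 was found in 126, 45, 3 and 33 members and of Krt1 in 51, 9, 0 and 22. At least 2 UMIs of Krt10 were found in 47, 13, 2 and 24 members. The 3 richest cells held 44.9%, 60.5%, 100% and 42.5% of the Krt10 UMIs. For Krt1 they held 46.2% in WT and 71.4% in KO on day 25, and 53.3% in KO on day 35. The cell richest in Krt1 held 28.0% of the UMIs in WT on day 25 and 22.1% in KO on day 35. In KO on day 25 it held 36.8%, and that same cell held most UMIs of several cornified envelope genes described below. A UMI of Krt10 was present in 27.2%, 23%, 5.26% and 32.7% of members. It was present in 19%, 21.7%, 11.9% and 19.3% of muscle cells at similar depth, so the share in members was above this background in WT on day 25 (23.2% to 31.5%) and in KO on day 35 (23.7% to 42.7%), and its interval held the background in the other libraries. For Krt1 the shares were 11%, 4.59%, 0% and 21.8% of members against 2.88%, 0.303%, 0.379% and 0.893% of muscle cells. The exact upper bound for 0 of 57 members is 6.27%.

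Most other spinous genes on day 35 lay on the same side. Of 12 measured, 7 were higher in KO and none lower, with a median log2 ratio of 1.82, against 5.19% of all genes higher and a median of 0.07. The median is the same with the genes that had no WT UMI at their bound, and 8 were higher, with a median of 1.97, when each gene's highest cell was left out of each library. Besides Krt1 and Krt10, the 7 higher genes were Calm4, a calmodulin-like skin protein (168, 122, 0 and 529 CPM), Them5, a thioesterase (25.3, 17.5, 0 and 165), Lgals7 (log2 2.24, 2.1 to 2.39), Calml3 (11.3 in WT and 82.0 in KO) and Lypd3 (79.2 and 208). All of these but Lgals7 had 0 to 21 UMIs in WT. They reached the minimum of 50 UMIs only through the KO library, where they were high. The count of 7 is therefore a description and gives no separate support. The fatty acid-binding protein gene Fabp5 stayed within 2-fold, at 3464, 2787, 2689 and 3567 CPM. At day 25 the list was split, with 1 of 13 genes higher, 2 lower (Krt1 and Krt10) and a median of -0.18. The higher one, the metallothionein Mt4, stood at 71.3, 428, 0 and 0 CPM, and is described with the hair follicle genes. Outside the list, the cysteine protease inhibitor Stfa3 had the same order as Krt1 and Krt10, at 262, 47.7, 30.2 and 1299 CPM (log2 -2.46 and 5.43). It belongs to a cluster of similar stefin genes, between which reads may have been split. The serine protease inhibitor Serpinb3a stood at 76.1, 53.1, 0 and 249 CPM.

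**Figure D2:**
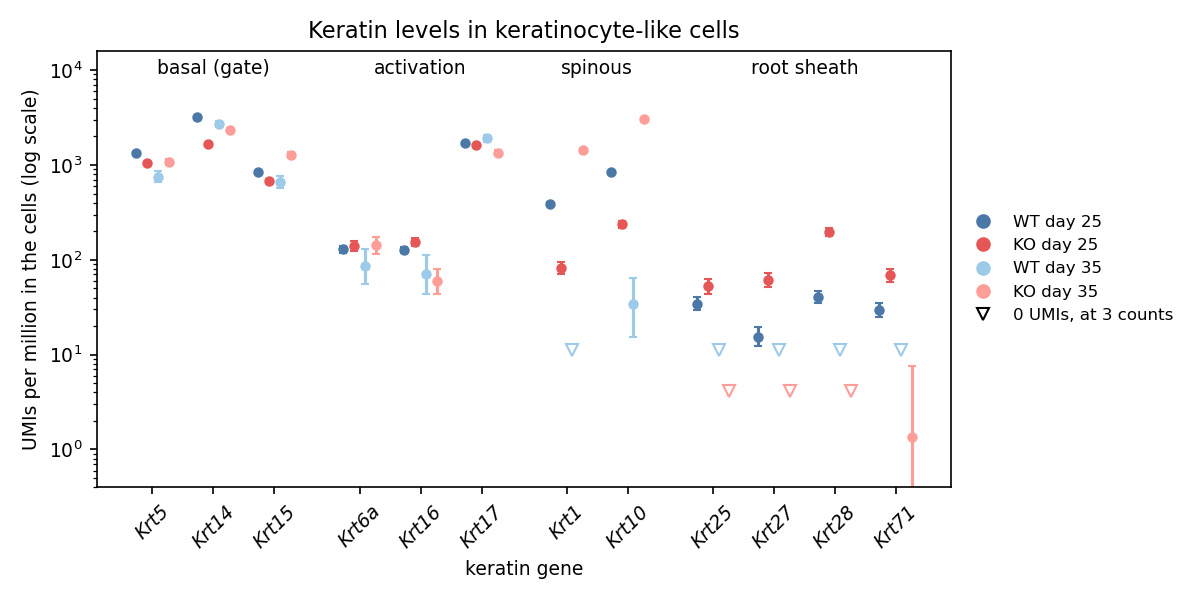
Levels of 12 keratin genes in keratinocyte-like cells (vertical axis, CPM, log scale), with exact 95% Poisson intervals as error bars and open triangles at 3 counts where a library had 0 UMIs. Krt10 runs from 33.9 CPM in WT to 3025 CPM in KO on day 35, while Krt5, Krt14 and Krt17 stay between 754 and 3167 CPM in all libraries.

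To compare cells at 1 depth, each member was thinned to 2000 UMIs and counted as spinous when Krt1 and Krt10 together had at least 2 UMIs. This is a range on 2 genes, not a cell type. It held 29 members in WT (6.26%, 4.23 to 8.87) and 8 in KO (4.08%, 1.78 to 7.88) on day 25, and 0 of 55 in WT (0% to 6.49%) and 19 of 101 in KO (18.8%, 11.7 to 27.8) on day 35. The intervals overlapped on day 25 and were apart on day 35. Without thinning the shares were 12.1%, 7.65%, 3.51% and 25.7%. Of all other cells, 0.204% to 0.347% passed, and of muscle cells 0.216% to 0.893%. Near the limit, with 1 or 2 UMIs, lay 24, 12, 2 and 7 members. Choosing the cells instead by at least 2 of Krt5, Krt14 and Trp63, a rule without the differentiation gene Krtdap, gave 4.43%, 1.83%, 0% and 15.2%.

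The spinous cells were also richer in other genes of the layer that the rule did not use. In KO on day 35 the 19 cells had Lgals7 at 19115 CPM against 3342 in the other 82 members, Stfa3 at 4617 against 212 and Calm4 at 2073 against 23.6. In WT on day 25 the 29 cells had Lgals7 at 17156 CPM against 2645 and Calm4 at 1587 against 21.7. The hemidesmosomal gene Col17a1 was lower in them, at 38.8 CPM against 105 in KO on day 35, from 7 and 58 UMIs, and at 47.2 against 97.0 in WT on day 25. The selecting basal keratins, given as a description, did not share 1 direction. In WT on day 25, Krt5, Krt14 and Krt15 stood higher in the spinous cells, at 2934 against 1163, 7643 against 2704 and 1287 against 786 CPM. In KO on day 35 they stood lower, at 981 against 1113, 1452 against 2594 and 748 against 1449. Cells with at least 2 UMIs of G2 and M phase genes made up 20.7% of the 29 spinous cells and 16.6% of the rest in WT on day 25, 0% of 8 and 23.4% in KO on day 25, and 5.26% of 19 and 26.8% in KO on day 35. With so few cells no direction is given.

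**Figure D3:**
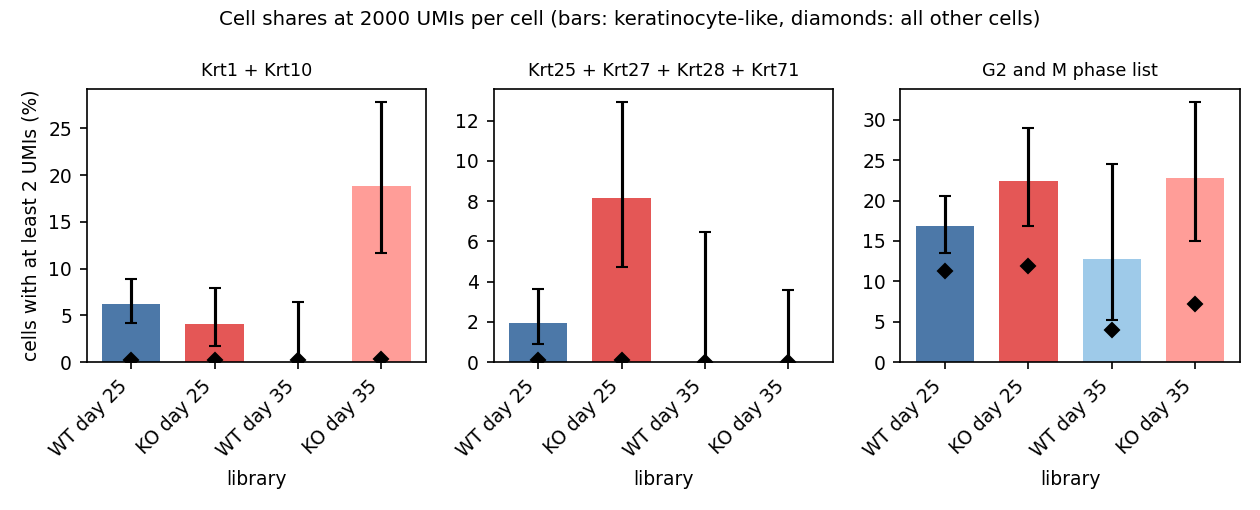
Share of keratinocyte-like cells with at least 2 UMIs of the named genes at 2000 UMIs per cell (bars, percent, exact 95% binomial intervals as error bars) beside the share in all other cells (diamonds), for Krt1 and Krt10 (left), 4 inner root sheath keratins (middle) and 21 G2 and M phase genes (right). The left panel peaks at 18.8% in KO on day 35 and the middle panel at 8.16% in KO on day 25.

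Keratins of the inner root sheath, the layer that guides the growing hair, were found on day 25 and almost not on day 35. Krt28 stood at 40.6, 197, 0 and 0 CPM (202, 439, 0 and 0 UMIs), in 25 members in WT and 47 in KO on day 25. Its log2 ratio of KO over WT on day 25 was 2.28 (2.04 to 2.53), and 1.37 when members with 4 or more genes of another cell type were left out. Krt27 stood at 15.5, 61.6, 0 and 0 CPM (log2 1.99, 1.58 to 2.42). Krt25 and Krt71 rested on fewer cells. Krt25 stood at 34.5, 52.6, 0 and 0 CPM in 11 and 15 members. Krt71 stood at 29.7, 68.3, 0 and 1.37 CPM, and 1 cell held 95.9% of its UMIs in WT. With its 0 UMIs on day 35 set to 3 counts per library, Krt28 was 48.1-fold lower than on day 25 in KO and 3.59-fold lower in WT. The day 35 depth limits the WT statement.

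The 2 keratins that stand for these programs lie near each other in the type I keratin cluster on chromosome 11 (GRCm38, minus strand), Krt10 at 99385254 to 99389364 and Krt28 at 99364872 to 99374903. Krt1 lies in the type II cluster on chromosome 15, at 101845426 to 101850794. The promoter windows of Krt10 and Krt28, which cover 250 bases before to 50 after the start, are shown because their genes were high in different libraries of the KO line. They are from RefSeq (GRCm38.p6), chr11:99389315-99389614 and chr11:99374854-99375153, read 5′ to 3′ on the minus strand, with the motifs found in capitals.
Krt10: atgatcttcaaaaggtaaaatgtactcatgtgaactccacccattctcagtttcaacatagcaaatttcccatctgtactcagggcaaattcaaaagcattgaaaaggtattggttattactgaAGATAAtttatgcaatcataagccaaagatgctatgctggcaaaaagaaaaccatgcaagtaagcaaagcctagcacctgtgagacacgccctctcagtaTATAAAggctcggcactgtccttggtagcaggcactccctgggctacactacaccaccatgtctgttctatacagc
Krt28: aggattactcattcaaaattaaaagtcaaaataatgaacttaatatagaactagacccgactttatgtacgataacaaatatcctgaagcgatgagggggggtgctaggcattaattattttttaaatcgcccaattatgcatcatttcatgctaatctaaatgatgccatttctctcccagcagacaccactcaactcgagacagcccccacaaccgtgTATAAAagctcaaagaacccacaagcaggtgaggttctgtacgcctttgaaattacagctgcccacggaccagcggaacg
The TATA box letters TATAAA start 26 bases before the Krt10 start and 30 before the Krt28 start and are present on either strand in 13.6% of 32851 promoter windows of that length. A GATA factor motif, AGATAA, is in the Krt10 window at 126 bases before the start and not in the Krt28 window, and is present in 11.2% of windows. The AP-1 motif TGANTCA is in neither, against 7.81% of windows. The AP-2 motif, searched as GCCNNNGGC, is in neither, against 16.6%. No matches overlapped. Letters alone do not show binding.

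Some regulators of hair follicle growth were higher in KO on day 25, as these keratins were. Of 20 measured hair follicle and appendage genes, 8 were higher in KO and none lower, with a median log2 ratio of 0.59, against 1.41% of all genes higher. The counts were the same without each gene's highest cell, and the median was then 0.72. Besides Krt27, Krt28 and Krt71 they were the homeobox genes Msx1 (19.5 and 71.0 CPM in WT and KO), Msx2 (18.7 and 98.5, log2 2.40) and Dlx3 (10.6 and 49.5, log2 2.22), the ligand gene Bmp4 (12.5 and 39.6, log2 1.67) and Shh (11 and 24.7, log2 1.16). Dlx3 was spread over 32 members in WT and 55 in KO. Lef1, a transcription factor of Wnt signalling in the hair matrix, stood at 15.3 and 59.3 CPM (log2 1.96). Of 20 measured Wnt and BMP pathway genes 6 were higher and 2 lower on day 25, against 1.41% and 3.64% of all genes. Of 7 on day 35, 1 was higher and 3 lower (Id1, Id2 and Id3, targets of BMP signalling), against 5.19% and 4.88%. In all other cells of the same libraries Dlx3, Bmp4 and Shh had log2 ratios of -0.12, -0.30 and -0.54. Other members of the list were level or lower in KO within 2-fold. Sox9, a transcription factor of follicle stem cells, had a log2 ratio of -0.72 (-0.96 to -0.48), Krt75, a companion layer keratin, -0.69 (-1.11 to -0.28), and Lhx2 0.15 (-0.30 to 0.59). Krt79, a keratin of the follicle opening and sebaceous duct, stood at 103, 63.4, 0 and 108 CPM. Mt4 had the same order of libraries as Krt28, at 71.3 and 428 CPM and without a UMI on day 35, in 29 and 58 members on day 25 (log2 2.59, 2.41 to 2.77). It was not concentrated in cells with root sheath keratins, where it stood at 111 CPM in WT and 468 in KO on day 25, against 77.9 and 448 in members with neither these nor the spinous keratins, by the thinned counts given next.

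After thinning, 9 members in WT (1.94%, 0.893 to 3.66) and 16 in KO (8.16%, 4.74 to 12.9) on day 25 had at least 2 UMIs of Krt25, Krt27, Krt28 and Krt71 together, and none on day 35. Without thinning the shares were 4.75% and 21.4%, against 0.107% and 0.109% of other cells after thinning. Within the limit of 1 or 2 UMIs lay 12 and 22 members. Gata3, a transcription factor of the inner root sheath, stood at 696 CPM in these cells in WT, against 58.2 in members with neither set of keratins, and at 408 against 64.3 in KO. Msx2 stood at 101 against 17.7 CPM in WT and at 202 against 91.6 in KO. Krt14, a selecting gene given as a description, stood at 80.7 against 2763 CPM in WT and at 234 against 1821 in KO. Only 1 cell, in KO on day 25, had both sets of keratins.

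The cornified envelope genes on day 25 rested largely on a single cell. Of 16 measured genes 10 were higher in KO and none lower, with a median log2 ratio of 1.49, against 1.41% and 3.64% of all genes. Without each gene's highest cell in each library 4 were higher and the median was 0.22. In that setting 105 of all 8924 genes were higher. A single KO cell with 23190 UMIs, which also had 4 or more muscle genes, held all 275 UMIs of the filaggrin gene Flg and all 166 of the repetin gene Rptn. It held 64.0% of the UMIs of cornifelin (Cnfn; 27.7, 344, 3.77 and 36.9 CPM), 86.3% of loricrin (Lor) and 64.3% of the protease gene Asprv1. The small proline-rich gene Sprr2d was less uneven, with 32.1% in its highest cell and 31.1 and 136 CPM, though reads may be shared among Sprr2 genes. At day 35 only 2 genes of the list had enough UMIs, and 1 was higher, against 5.19% of all genes.

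**Figure D4:**
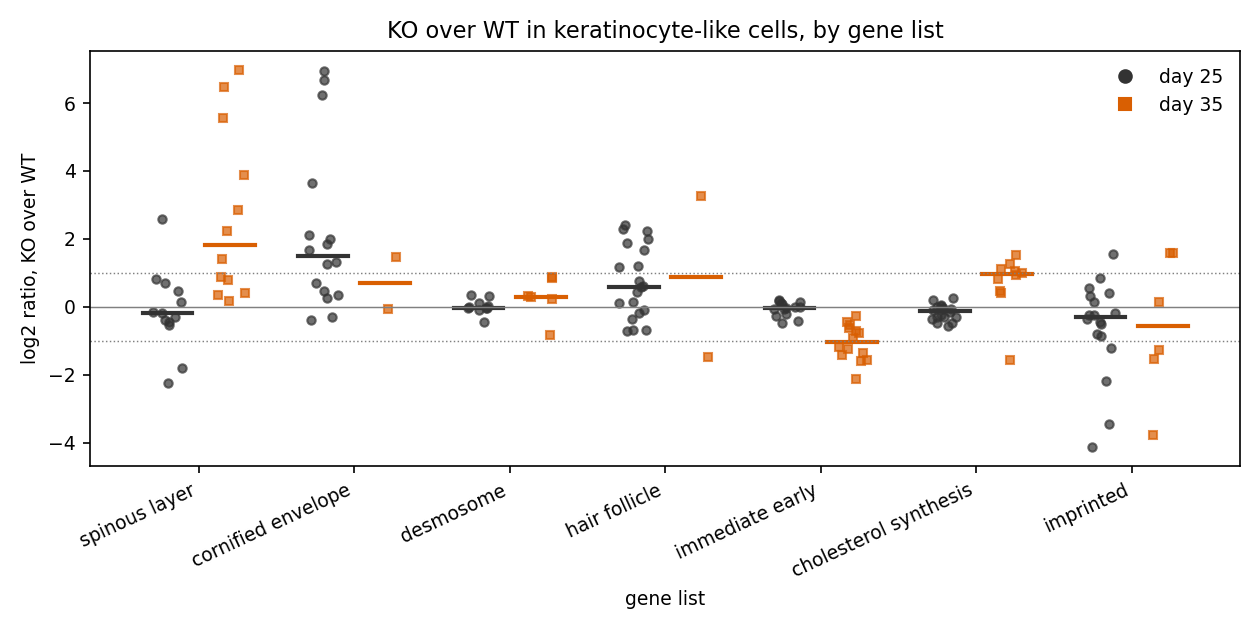
Log2 ratio of KO over WT in keratinocyte-like cells (vertical axis) of each measured gene in 7 lists on day 25 (black circles) and day 35 (orange squares). Horizontal bars are list medians, which reach 1.82 for spinous genes and -1.05 for immediate early genes on day 35, and dotted lines mark a 2-fold ratio.

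Beyond the layers, 6 genes were named as higher and 10 of 14 as lower in KO on both days. The imprinted pair H19 and Igf2 moved in opposite directions. H19, a growth-restraining RNA, stood at 369, 1082, 121 and 361 CPM (log2 1.55 and 1.58), and Igf2, the growth factor beside it, at 225, 49.0, 170 and 12.3 (-2.20 and -3.79). All other cells had the same directions, with 2.05 and 1.95 for H19 and -2.40 and -3.31 for Igf2, so the difference was shared with the rest of the organoid. The same holds for Cdkn1c, an imprinted cell cycle inhibitor, at 111 CPM in WT and 6.29 in KO on day 25 (-4.14, and -3.83 in other cells). Grb10, an imprinted adaptor of growth factor receptors, had 74, 0, 5 and 0 UMIs. Of 18 measured imprinted genes 1 was higher and 4 lower on day 25, against 1.41% and 3.64% of all genes. Of 6 on day 35, 2 were higher and 3 lower, against 5.19% and 4.88%.

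Tmsb10, which encodes an actin-sequestering peptide, was also lower in KO on both days. It stood at 2411, 990, 2787 and 841 CPM, with log2 ratios of -1.28 (-1.35 to -1.22) and -1.73 (-1.89 to -1.57), and of -0.75 and -1.64 in other cells. The heat shock gene Hspa1a stood at 56.8, 185, 22.6 and 91.6 CPM (1.70 and 2.02) in members, but had 0.20 and 0.33 in other cells. On thinned cells its day 25 ratio was 0.36. Its near-identical copy Hspa1b may share reads with it. Hpgd, a prostaglandin-degrading enzyme, stood at 3.82, 13.9, 22.6 and 80.7 CPM. Psca, Cysrt1 and Sprr2h were higher as well, but 78.7% and 90.4% of the Psca UMIs in the KO libraries came from 1 cell each. Among the lower genes, Tnnc2, Acta1 and Myl1 are muscle genes and Fbxo2 is in the otic list. In WT on day 35, 1 cell held 77.2% of the Fbxo2 UMIs and 85.7% of those of Mia. Cd200, an immune-regulatory surface protein of follicle keratinocytes, stood at 36.1, 10.8, 155 and 54.7 CPM, and Ifitm1 at 34.1, 13.0, 155 and 41.0, with 61.0% and 56.7% of its day 35 UMIs in 1 cell of each library. The antibacterial lectin gene Reg3g rested on 1 WT cell on day 35, which held 533 of 534 UMIs and also all 266 UMIs of the airway secretory gene Bpifa1.

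Several of the largest ratios on day 25 alone were of genes known from other cell types. The otoconial gene Oc90 had 153 UMIs in WT and 0 in KO, Otog 181 and 1, and the hair cell gene Ccer2 113 and 0, of which 82.3% lay in 1 WT cell. Agr3 had 76 and 0. The otic list as a whole stood at 232 CPM in WT and 23.4 in KO, with 0 and 3 of 12 genes at 0, and its part in these ratios was not tested. With cells that passed another type's list left out, 119 of 6898 genes were lower in KO on day 25 instead of 325 of 8924. On the higher side, Lyz2, C1qb and the other macrophage genes came mainly from 1 KO cell with 25327 UMIs, which held 84.9% of Lyz2 and 89.2% of C1qb. Of the 10 immune genes, 8, 3, 7 and 8 were at 0. Krtap8-1, a hair shaft protein gene, had 99.0% of its 96 UMIs in 1 KO cell.

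Immediate early genes, which respond within minutes to growth signals and stress, were compared on day 35. Of 14 measured, none was higher in KO and 7 were lower, with a median log2 ratio of -1.05, against 4.88% of all genes lower. On day 25 none was past 2-fold (median -0.02). The phosphatase gene Dusp1 stood at 175, 174, 1377 and 453 CPM, the transcription factor gene Atf3 at 140, 134, 551 and 127, and Junb at 815, 892, 2305 and 968, so that WT on day 35 stood out above the other 3 libraries. The chaperone gene Dnajb1, of the heat shock list, had the same shape (183, 220, 1339 and 237 CPM). In other cells the day 35 ratio was 0.14 for Dusp1, 0.05 for Junb and -0.77 for Atf3. The median mitochondrial share of members was also highest in WT on day 35, at 5.36%, against 3.06%, 2.60% and 4.05%, and its part in the result was not tested.

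Cholesterol synthesis genes lay mostly on the other side on day 35. Of 10 measured, 5 were higher in KO and 1 lower, with a median of 0.97, against 5.19% and 4.88% of all genes, while none of 18 was past 2-fold on day 25. Fdps, which makes farnesyl diphosphate, stood at 397, 380, 192 and 420 CPM (day 35 log2 1.13, 0.69 to 1.58), and Cyp51 at 68.1, 61.1, 30.2 and 86.1. The lower gene was Insig1, which holds the pathway back in cells rich in sterol, at 55.0, 62.9, 170 and 57.4 CPM (log2 -1.56). Again WT on day 35 was the library apart, and it rests on 57 cells. Of 9 measured G2 and M phase genes 3 were higher in KO on day 35 and none lower. Cells with at least 2 UMIs of the list were 16.8%, 22.4%, 12.7% and 22.8% of members after thinning (33.7%, 41.8%, 17.5% and 25.7% before), with overlapping intervals on both days, against 11.3%, 11.9%, 3.96% and 7.17% of other cells. Elastin (Eln; 351 and 20.5 CPM, log2 -4.10) and Mfap4 (355 and 38.3, log2 -3.21), both of elastic fibres, were lower in KO on day 35.

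From day 25 to day 35, 648 of 7979 genes were higher (8.12%) and 1060 lower (13.3%) in WT members, and 246 of 5690 higher (4.32%) and 293 lower (5.15%) in KO members. In WT only 496 and 344 of these had an interval without 0. Both time comparisons share libraries with those of the genotypes. The transcription factor gene Hes1, a target of Notch signalling, was higher in both genotypes. It stood at 385, 328, 2320 and 1144 CPM, in 338, 152, 50 and 84 members, with log2 ratios of 2.59 (2.46 to 2.72) in WT and 1.80 (1.66 to 1.95) in KO, and of 1.56 and 1.02 in other cells. Of the other 14 Notch pathway genes the highest level was 117 CPM, of the ligand gene Jag1 in WT on day 35, and the receptor gene Notch1 stood at 65.1, 77.3, 45.3 and 49.2 CPM. Clu, which encodes a secreted chaperone, stood at 119, 112, 773 and 392 CPM, and Gpx2, a glutathione peroxidase gene, at 50.2, 20.7, 192 and 268, though 41.8% of Clu and 54.1% of Gpx2 UMIs in KO on day 35 came from 1 cell each. Mia, Wfdc18, Ptgds, Fbxo2, Tspan8 and Dclk1 were higher as well, but were also higher in all other cells, and 71.3% and 85.7% of the day 35 UMIs of Wfdc18 came from 1 cell in each library.

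Genes lower on day 35 in both genotypes included the growth-related imprinted genes. Dlk1, a non-canonical Notch ligand, stood at 470, 342, 56.6 and 31.4 CPM (log2 -3.05 and -3.44), and Mest and Nnat had log2 ratios of -2.67 and -3.44 in WT and of -2.22 and -4.62 in KO. Other cells had -2.26 and -3.07 for Dlk1. Pgk1, a glycolytic enzyme, stood at 694, 478, 166 and 119 CPM (-2.07 and -2.01). Actc1, a muscle actin gene, and Hist1h2ap, a replication-linked histone gene, were lower too, as were the appendage genes Mt4, Krt28, Krt75 and Prr9, of which Krt75 had 70.9% of its WT day 25 UMIs in 1 cell. The spinous list itself went opposite ways over time. In WT 9 of 13 genes were lower and none higher (median -1.39), and in KO 6 were higher and 2 lower (median 0.98). Krt10 had log2 ratios of -4.62 (-5.75 to -3.69) in WT and 3.67 (3.53 to 3.81) in KO, which restates the levels given above.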

How the data were processed

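Cells of 4 libraries were profiled with 10x Genomics v2 chemistry on an Illumina NovaSeq, per the labels. The deposited matrices hold raw UMI counts per gene and barcode, made by the authors and not normalized. Tools listed, per the submitters' processing notes, were bcl2fastq, R 3.5.1, Cell Ranger 2.1.0 and Seurat 2.3.1. They give GRCm38 and mm10 as builds, and no roles. How reads matching several genes were counted is not given in the sources used here.

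Barcodes were filtered and members chosen as stated in the report, and no doublet caller was run. UMIs were summed over members per library and divided by their total. Levels have exact Poisson, shares Clopper-Pearson and ratios conditional binomial intervals at the 95% level, and in a ratio 0 UMIs were replaced by 3 counts per library. Cells are not replicates, so no p-value was computed. The script was tested on simulated counts. The members, the 38 gene lists and the rules were chosen with earlier results of these data known.

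Genes were named as follows, leaving out selecting, ribosomal protein and mitochondrial genes. Up to 10 per direction on both days past 2-fold with intervals without 0 were ranked by the smaller interval bound, for each day 5, and over time 10 past 2-fold in both genotypes. List members and the 20 leading genes could be named besides. A few genes that qualify are not reported here. Single highest cells were looked at after the values were seen. Alternatives varied the rule, the barcode filter, depth, scaling and minimum count. Gene positions are from GENCODE M21. Python 3.11, NumPy 2.4.6, SciPy 1.17.1, pandas 2.3.3 and Matplotlib 3.10.9 were used.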

Additional observations from a re-analysis of the deposited data

Results flagged for a closer look

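The member share of KO over WT lay on opposite sides of 1 on the 2 days, at 0.370 on day 25 and 2.15 on day 35. With 1 library per group this difference between days was not tested, and the same holds for each gene below.

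In 9 of 2557 genes the log2 ratios, KO over WT, were at least 1 in size and of opposite sign on the 2 days. Lower on day 25 and higher on day 35 were Krt1 (-2.23 and 6.98, the latter against 3 counts), Krt10 (-1.81 and 6.48) and the stefin genes Stfa3 (-2.46 and 5.43) and BC117090 (-1.05 and 2.41). These 4 were spread over at least 22 KO members on day 35. The protease inhibitor gene Slpi (-1.92 and 1.89) had 51 UMIs in 16 KO members on day 35. Krt4 (-2.63 and 4.18), a keratin of non-cornified stratified epithelia, had 50 UMIs in 4 KO members there, and S100a8 (-2.55 and 2.38), an alarmin, had 98.4% of its KO UMIs in 1 member. Higher on day 25 and lower on day 35 were the proteoglycan gene Dcn (1.87 and -1.24), which is in the fibroblast list, and Id2 (1.21 and -1.04), a target of BMP signalling. The day 35 ratio of Id2 kept its sign but stayed past 2-fold in only 4 of 16 alternatives (-1.07 to -0.49). The summed fibroblast list had the same order as Dcn, at 462 and 1179 CPM on day 25 and 796 and 381 on day 35, and its part in that ratio was not tested.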

How the results depend on the processing

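Ratios of 79 named genes were followed, and not every gene had a ratio past 2-fold. Of the 132 ratios past 2-fold, 92 stayed past 2-fold in every alternative that gave a value, and 17 changed sign in at least 1. The genotype ratios of Krt1, Krt10, Stfa3 and H19, and the time ratios of Hes1, kept their direction in all 16 of theirs. The share ratio of KO on day 35 over day 25 turned to 1.05 with 5 of the 7 genes, to 1.05 with 2 UMIs per gene, to 1.05 without the deepest barcodes and to 1.42 on thinned cells, where the ratios were 0.305 (KO over WT, day 25) and 0.245 (WT over time). The spinous share was 10.6% in WT on day 25 on thinned cells and 0.781% in KO on day 25 without the deepest barcodes. Sign changes in KO over WT on day 25 were Krt71 -2.37 (5 of 7 genes), Fbxo2 0.45 and Mia 0.42 (2 UMIs per gene), Mia 0.14 (cells of other types left out), Myl1 0.12 (thinned), and Asprv1 -0.49, Cysrt1 -1.79, Psca -5.78 and Sprr2h -0.19 (without the deepest barcodes). At day 35 they were Fbxo2 2.62 and Mia 2.43 (2 UMIs per gene), 1.66 and 1.35 (2 of Krt5, Krt14 and Trp63), and 0.30 and 0.71 (without each gene's highest cell), and Mia also 1.27 (thinned), 1.99 (stricter filter), 0.23 (cells of other types left out) and 0.80 (without the deepest barcodes). Over time in WT they were Ptgds -0.13 (5 of 7), Dclk1 -1.84 and Mt4 0.0741 (2 UMIs), Dclk1 -0.30 and Fbxo2 -0.97 (2 of 3 genes), Dclk1 -0.80, Fbxo2 -0.41 and Krt75 0.73 (stricter filter), and Fbxo2 -0.37 (cells of other types left out) and -0.0627 (without its highest cell). In KO they were Wfdc18 -0.81 (5 of 7), -1.03 (2 UMIs) and -0.82 (thinned), and Clu -0.36 (2 UMIs). The cause of these changes was not tested.

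Counts of genes past 2-fold varied widely, and in many alternatives the number of genes tested differed too. In the order higher and lower for day 25, day 35, WT over time and KO over time, a minimum of 20 UMIs gave 272, 711, 506, 369, 1464, 1257, 570 and 666. A minimum of 200 gave 44, 64, 15, 32, 209, 270, 71 and 61, and an interval bound past 2-fold gave 66, 99, 29, 39, 140, 65, 70 and 91. At day 25 the counts were 77 and 175 (5 of 7 genes) and 55 and 153 (thinned). The lower count alone was 152 (2 UMIs per gene), 216 (10 UMIs over the genes), 209 (stricter filter), 119 (cells of other types left out) and 166 (without the deepest barcodes). At day 35, 66 were lower with the stricter filter and 202 higher without each gene's highest cell. In WT over time there were 429 and 684 (thinned), 674 lower (cells of other types left out), 634 lower (without the deepest barcodes), 380 higher (median-of-ratios scaling), and 352 and 1612 (without each gene's highest cell). In KO over time, lower counts were 441 (3 of 7), 187 (5 of 7), 105 (thinned), 121 (without the deepest barcodes) and 190 (root sheath keratin cells left out), and higher counts 143 (median-of-ratios scaling) and 161 (no mitochondrial or ribosomal protein genes). Median-of-ratios scaling moved the median log2 ratio of all genes over time to -0.24 in WT and -0.07 in KO, and the share of higher among called genes from 37.9% to 20.6% and from 45.6% to 26.7%. Without mitochondrial and ribosomal protein genes the shares were 27.3% and 31.0%. Counts not given here were within 1.5 times those of the report. Leaving out each gene's highest cell, root sheath keratin cells, or cells with immune UMIs was chosen after seeing the data.

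No paired analysis was possible because each group had 1 library. Limits are the missing replicates, the single edited line, the 57 WT members on day 35 and the uncalled doublets.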

Other observations

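Other epidermal lists are read against all genes, of which 1.41% were higher and 3.64% lower in KO on day 25, and 5.19% and 4.88% on day 35. Of 22 measured epidermal transcription factors 1 was higher in KO on day 25 and none lower (median log2 ratio 0.20). The higher one was Hopx (log2 1.62), a homeodomain regulator of keratinocyte differentiation. On day 35, of 10, 1 was higher (Barx2, 1.82) and 3 lower (Klf4, -1.03; Runx1, -1.82; Sox9, -1.49). Of 15 activation keratins and alarmins 5 were lower and none higher on day 25 (median -0.52), and on day 35, of 11, 4 were higher and 2 lower. Stfa3, S100a8 and Slpi of this list were lower on day 25 and higher on day 35. Krt16, a keratin of activated epidermis, stood at 127, 154, 71.7 and 60.2 CPM, in the order used in the report, and Krt6a at 129, 140, 86.8 and 142. Lcn2, an iron-binding alarmin, was lower in KO on both days, at 337, 154, 317 and 157 CPM.

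Serine proteases and their inhibitors, the family of the targeted gene, were split on day 25, with 3 of 15 higher and 2 lower. The membrane protease gene St14 stood at 25.3 CPM in WT and 54.4 in KO (log2 1.10), and Spink5, whose product inhibits epidermal kallikreins, at 4.22 and 37.8 (log2 3.16), with 64.3% of its KO UMIs in 1 cell. None of 17 hypoxia and glycolysis genes was past 2-fold between genotypes on either day, nor were any of 6 connexin or 8 barrier lipid genes on day 25. Within 2-fold, 14 of the 17 had intervals below 0 and none above on day 25 (median log2 ratio -0.33). On day 35, 6 of the 17 had intervals above 0 and none below (median 0.23). The connexin gene Gja1 stood at 375, 480, 494 and 714 CPM.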
